A study of Mus musculus with 6 samples.

Results

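The 10 genes described here encode members of the AP-1 family of transcription factors and close relatives: *Fos*, *Fosb*, *Fosl1*, *Fosl2*, *Jun*, *Junb*, *Jund*, *Atf3*, *Batf3* and *Maff*. They were chosen by name from the 49585 genes of the count table, through their Ensembl IDs; 9 of them are among the 12130 genes that reached the mean count of 10 per library set for testing, and *Batf3* is not. The libraries are polyA RNA-seq of the mouse hepatocyte line AML12, taken 24 h after transfection with an over-expression construct that carried either the Zac1 open reading frame (3 libraries, numbered 4, 5 and 6) or, as the control, the open reading frame of the fluorescent protein EGFP (3 libraries, numbered 1, 2 and 3). The imprinted gene *Plagl1* encodes Zac1, which regulates transcription through its zinc fingers. All 6 libraries come from transfected cells of 1 line, and none is untransfected. Whether replicates are independent cultures is not stated, so a p-value here measures sample-to-sample spread that could be technical.

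AP-1 is not 1 protein but a set of dimers of basic leucine zipper (bZIP) proteins. JUN proteins pair with each other or with FOS proteins, FOS proteins need a JUN partner, and the dimers bind the AP-1 site, TGACTCA, and related elements. *Fos*, *Fosb*, *Jun*, *Junb* and *Atf3* are immediate-early or stress-induced genes that growth factor, MAP kinase and stress signals switch on quickly and for a short time; in liver, AP-1 is known for its part in regeneration, inflammation and tumour growth. FOSL1 (FRA-1) and FOSL2 (FRA-2) are the longer-lived FOS relatives, ATF3 can pair with JUN proteins or repress as a homodimer, BATF3 lacks an activation domain, and MAFF is a small MAF protein without one.

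The libraries held 16104498 to 18302538 reads in Zac1 and 14801240 to 15145092 in EGFP. *Plagl1* was read 106033, 135108 and 148382 times in Zac1 libraries 4, 5 and 6, against 39, 79 and 67 times in EGFP libraries 1, 2 and 3, so it was higher in every library labelled Zac1; construct and endogenous transcripts are counted together. Of the 12130 genes tested, 378 (3.12%) were higher and 81 (0.668%) lower in Zac1, 459 in all (3.78%); with least-squares offsets for the GC content of transcripts the split was 277 higher and 348 lower. On a principal component with 15.5% of the variance, Zac1 4 (11.6) and EGFP 1 (18.7) stood apart from the other 4 libraries (-10.6 to -3.5). Of 15 hepatocyte markers 12 were tested, 1 was higher and 1 lower (*Ttr*), and their summed level was 5080 to 5500 CPM (counts scaled to library size with TMM factors) in Zac1 and 4980 to 5310 CPM in EGFP. *Apob*, *Hnf4a*, *Krt8* and *Krt18* were abundant, while *Tat* (1 read in Zac1 and 0 in EGFP), *Trf* (3 and 2) and *Cps1* (9 and 8) were near absent. Summed over 9 fibroblast and stellate markers the level was 2.24 to 2.88 CPM in Zac1 and 0.604 to 1.01 CPM in EGFP; the 1 tested, *Col1a1*, was higher (98 reads in Zac1 and 29 in EGFP, edgeR adjusted p = 0.0164; 0.1 without Zac1 6 and 0.0653 without EGFP 2), and *Dcn*, *Lum* and *Lrat* had 0 reads in every library. Over 8 leukocyte and macrophage markers it was 1.88 to 2.61 CPM in Zac1 and 2.16 to 2.48 CPM in EGFP, with *Itgam* and *Cd3e* at 0 and 0 of 1 tested called. Its members moved apart: *Csf1r*, below the minimum for testing, had 7, 4 and 19 reads in Zac1 and 0 in each EGFP library, while *Cd68* had 56 reads in Zac1 and 68 in EGFP and *Ptprc* 25 and 31 (all 3 named after their values were seen). Over 6 endothelial markers the level was 0.997 to 1.58 CPM in Zac1 and 0.604 to 0.946 CPM in EGFP, none reaching the minimum for testing. The part of the fibroblast, leukocyte and endothelial markers in the results below was not tested.

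The promoter windows of *Fosb* and *Atf3*, the AP-1 genes that changed, are shown first, with those of *Fos*, the paralog of *Fosb*, and *Junb*, the AP-1 gene with the most reads. Each runs from 250 bases before to 50 bases after the start site annotated by RefSeq (GRCm38.p6), 5′ to 3′ on the gene's own strand. Capitals mark the core of the cyclic AMP response element (TGACG on one strand, CGTCA on the other) and the TATA box (TATAAA).

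Fosb (chr7:19309996-19310295, minus strand): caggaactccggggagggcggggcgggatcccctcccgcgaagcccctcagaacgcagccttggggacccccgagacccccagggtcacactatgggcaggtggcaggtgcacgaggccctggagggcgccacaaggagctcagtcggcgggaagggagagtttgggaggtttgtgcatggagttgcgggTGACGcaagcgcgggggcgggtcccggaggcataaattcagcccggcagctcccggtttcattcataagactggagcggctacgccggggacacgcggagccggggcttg

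Atf3 (chr1:191183284-191183583, minus strand): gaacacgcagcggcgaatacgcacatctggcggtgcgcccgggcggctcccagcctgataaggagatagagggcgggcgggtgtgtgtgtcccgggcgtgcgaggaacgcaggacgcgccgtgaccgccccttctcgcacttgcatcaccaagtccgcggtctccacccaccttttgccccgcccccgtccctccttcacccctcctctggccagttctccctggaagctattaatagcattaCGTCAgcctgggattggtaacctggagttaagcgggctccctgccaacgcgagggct

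Fos (chr12:85473640-85473939, plus strand): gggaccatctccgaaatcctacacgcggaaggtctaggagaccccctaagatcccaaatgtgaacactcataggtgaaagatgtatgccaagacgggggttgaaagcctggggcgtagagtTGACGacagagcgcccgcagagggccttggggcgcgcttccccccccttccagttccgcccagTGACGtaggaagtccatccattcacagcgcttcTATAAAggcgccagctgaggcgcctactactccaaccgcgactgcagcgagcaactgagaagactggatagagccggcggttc

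Junb (chr8:84978699-84978998, minus strand): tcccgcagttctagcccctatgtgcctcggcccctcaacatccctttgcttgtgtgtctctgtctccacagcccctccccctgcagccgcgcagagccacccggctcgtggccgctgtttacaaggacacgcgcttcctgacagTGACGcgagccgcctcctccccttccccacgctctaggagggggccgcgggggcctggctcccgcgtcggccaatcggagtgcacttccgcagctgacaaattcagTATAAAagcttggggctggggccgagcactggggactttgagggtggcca

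RefSeq windows were matched by symbol for all of the 10 genes but *Fosl1*, in 11 windows, 3 of them for *Maff*; those of *Fosl2* and *Jund* did not read into a start in the GENCODE transcripts. Each motif was searched on both strands, and the core was added after the sequences had been seen. The core lay 60 bases before the start in *Fosb*, 7 before it in *Atf3*, 129 and 66 before it in *Fos* and 106 before it in *Junb*, counted to its far end. With *Maff* that made 5 of the 9 AP-1 genes with a window. Of all 32851 windows of the same length, 20.8% held it, a share of windows and not of genes. The windows shown above were 58.7% to 68.3% GC, against a median of 52.7% over all windows. The full element TGACGTCA, which contains the core on both strands, was found in 1 *Maff* window and in 1.79% of all windows. *Fos* had a TATA box 33 bases before its start and *Junb* one at bases 1 to 6 after the annotated start (13.6% of all windows). In GENCODE *Junb* begins further downstream, at 84978718, and its TATA box lies before that start. The *Atf3* window lies inside the gene, whose outermost start in GENCODE is at 191218039. Distances in *Junb* and *Atf3* thus depend on the annotated start. The AP-1 site TGACTCA (5.2% of all windows), the CArG box bound by SRF (1.63%) and GGGGCCCC, described as a ZAC1 binding sequence (1.08%), were found in none of the AP-1 windows. These matches describe letters in a short window and say nothing of binding. Variant spellings of an element and sites outside the windows were not searched. A motif not found here may thus still be present at the gene.

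Of the 9 AP-1 genes tested, *Fosb* and *Atf3* were higher in Zac1, 0 were lower, and 7 did not pass the edgeR quasi-likelihood test with Benjamini-Hochberg adjustment over all tested genes at 0.05; across all genes 3.12% were higher. DESeq2 and limma-trend also called 2 higher and 0 lower, and at an unadjusted p under 0.05 there were 7 higher and 0 lower, where 9.41% of all genes were higher by that rule. All 9 log2 fold changes were above 0, against 49.5% of all tested genes, with a median of 0.19 against -0.002. In 6 of the 9, *Fosb*, *Fos*, *Fosl1*, *Fosl2*, *Jund* and *Atf3*, all Zac1 libraries lay above all EGFP libraries, which held for 11.9% of all tested genes (20.6% in either direction). The AP-1 transcripts are GC-rich: in all 9 the longest transcript lay above the median of tested genes (49.4%), at 51.9% to 67.1%, and across 12116 genes, which are not independent, log2 fold change and GC content had a Spearman's rho of 0.4. With least-squares GC offsets *Fosl1*, *Junb*, *Jund* and *Maff* turned to values below 0 (-0.11, -0.19, -0.18 and -0.04, none past the test), whereas with robust GC offsets they stayed above 0 (0.03, 0.08, 0.03 and 0.06, none past the test). With the least-squares offsets *Fosb* (1.33, adjusted p = 0.00055) and *Atf3* (0.36, adjusted p = 0.0228) still passed by edgeR. In bulk RNA, more cells that express a gene and more RNA per cell cannot be told apart, and how many cells took up a construct was not measured here.

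**Figure D1:**
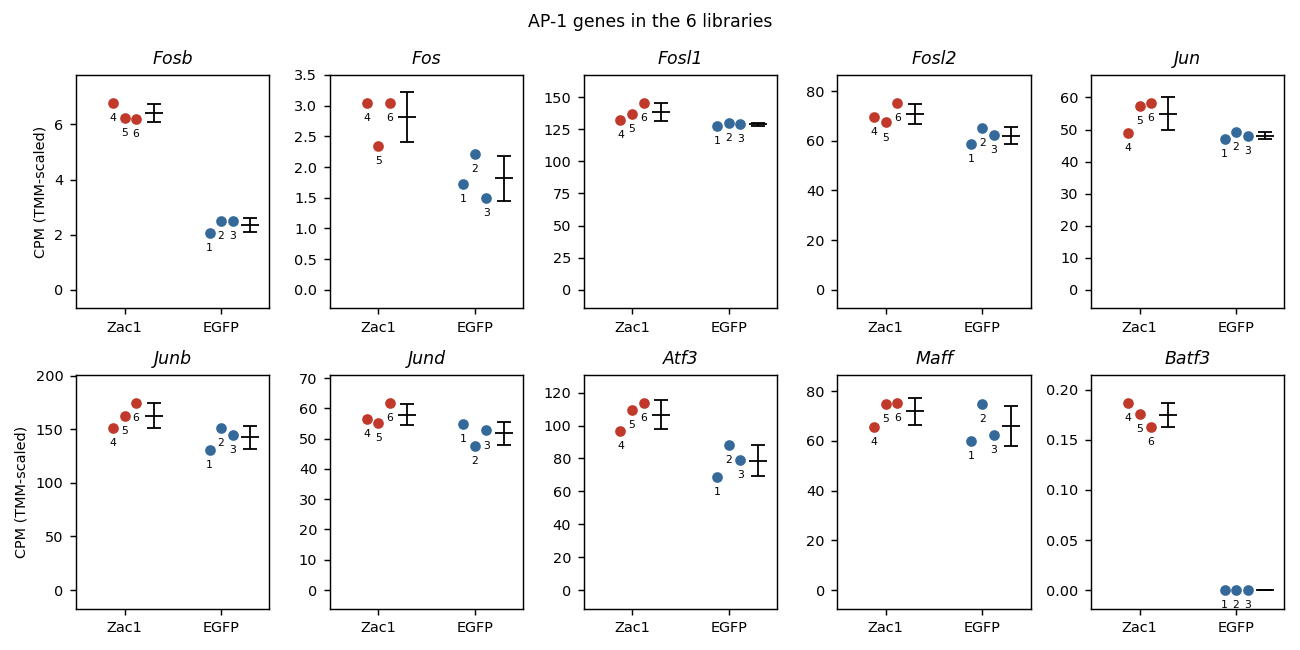
Level of each AP-1 gene in every library, in CPM on a linear axis, with Zac1 libraries (4, 5, 6) left of EGFP libraries (1, 2, 3); points are libraries and bars are mean ± SD, n = 3. *Fosb* shows a wide gap between the groups and *Atf3* a narrow one, *Jun*, *Junb* and *Maff* overlap, and *Batf3* rests on 3 reads in each Zac1 library.

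Among the FOS genes, *Fosb* (ENSMUSG00000003545; GRCm38 chromosome 7, 19302696 to 19310051, minus strand) showed the largest change of the 9. It was read 109, 106 and 114 times in Zac1 libraries 4, 5 and 6, against 31, 37 and 37 times in EGFP libraries 1, 2 and 3. As a level this was 6.79, 6.23 and 6.2 CPM in Zac1 and 2.06, 2.48 and 2.5 CPM in EGFP, so the lowest Zac1 library was well above the highest EGFP library. *Fosb* rose 2.72-fold, to a mean of 6.41 ± 0.332 CPM in Zac1, against 2.35 ± 0.247 CPM in EGFP (SD, n = 3; log2 fold change 1.44, SE 0.17, 95% interval 1.08 to 1.8, edgeR adjusted p = 0.000211). It passed under all 17 other settings tried, with log2 fold changes from 1.32 to 1.49, and with each of the 6 libraries left out (adjusted p up to 0.00328). The gene gives rise to full-length FOSB and, by splicing, to the shorter ΔFOSB, which lacks part of the activation domain; counts per gene do not separate them.

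*Fos* (ENSMUSG00000021250; chromosome 12, 85473890 to 85477273, plus strand) encodes c-FOS, the best known immediate-early member. It was scarce in all libraries, with 49, 40 and 56 reads in Zac1 (3.05, 2.35 and 3.05 CPM) against 26, 33 and 22 reads in EGFP (1.73, 2.22 and 1.49 CPM). The groups did not overlap, but the lowest Zac1 library, Zac1 5, was close to the highest EGFP library, EGFP 2. The log2 fold change was 0.63 (SE 0.23, 95% interval 0.13 to 1.14), with an adjusted p of 0.184 in edgeR. The interval, not adjusted for the number of genes, covers folds from 1.1 to 2.2. Under 16 other settings that tested it, it passed in 0.

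*Fosl1* and *Fosl2* were expressed far above *Fos* and *Fosb*. *Fosl1* (chromosome 19, 5447547 to 5455946, plus strand) stood at 132.0, 137.2 and 145.7 CPM in Zac1 and 127.7, 129.7 and 129.4 CPM in EGFP. The EGFP libraries were close together and all Zac1 libraries lay above them. The log2 fold change was 0.1 (95% interval -0.01 to 0.22, edgeR adjusted p = 0.382), with an upper bound of 1.16-fold. *Fosl2* (chromosome 5, 32135801 to 32157842, plus strand) stood at 69.5, 67.4 and 75.4 CPM in Zac1 and 58.6, 65.3 and 62.3 CPM in EGFP, again without overlap. Its log2 fold change of 0.19 (SE 0.07) did not pass (edgeR adjusted p = 0.151). Neither passed under any of 17 other settings.

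None of the JUN genes, whose products are the partners that FOS proteins need, passed the test. *Jun* (chromosome 4, 95049034 to 95052222, minus strand) was at 49.0, 57.4 and 58.4 CPM in Zac1 libraries 4, 5 and 6 and at 47.0, 49.3 and 47.9 CPM in EGFP, so that Zac1 4 lay inside the EGFP range. *Junb* (chromosome 8, 84974484 to 84978718, minus strand), a JUN protein that can restrain c-JUN, was at 151.3, 162.1 and 174.5 CPM in Zac1 and 130.4, 151.5 and 144.9 CPM in EGFP. *Jund* (chromosome 8, 70698949 to 70700616, plus strand), the JUN member usually expressed without stimulation, was at 56.6, 55.3 and 61.8 CPM in Zac1 and 54.9, 47.6 and 52.7 CPM in EGFP. Only *Jund* had no overlap between the groups, by a narrow margin. Log2 fold changes were 0.19 for *Jun* (95% interval 0.03 to 0.35, adjusted p = 0.202), 0.19 for *Junb* (0.05 to 0.34, adjusted p = 0.15) and 0.16 for *Jund* (0.01 to 0.32, adjusted p = 0.281), all by edgeR, and the upper bounds correspond to at most 1.28-fold.

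These JUN values rested on which libraries were used. Without Zac1 4, *Jun* (0.27, adjusted p = 0.0194) and *Junb* (0.24, adjusted p = 0.0231) passed, so that 4 AP-1 genes were called higher in place of 2. Without Zac1 4 and EGFP 1 together, *Jun*, *Junb* and *Jund* passed (adjusted p = 0.00761, 0.00909 and 0.02) and 5 were called, but in that fit the variance of each gene was taken nearly entirely from the trend over genes (1560 prior degrees of freedom, against 10), so its p-values are no firmer evidence. *Junb* also passed with no filter on low counts (0.0308), a fit of the same kind. Overlap with an opposite-strand neighbour may have added or removed reads, since the strand setting of the counting is not stated: *Junb* overlaps *Prdx2* (13713 reads in Zac1 and 11824 in EGFP), *Jun* overlaps *Junos* (114 and 81), *Jund* overlaps *Gm11175* (7 and 10), and *Fosl1* overlaps *Ccdc85b* (1312 and 1008).

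*Atf3* (ENSMUSG00000026628; chromosome 1, 191170296 to 191218039, minus strand), a stress-induced bZIP gene, was the other gene that rose. Its level was 96.8, 109.4 and 113.8 CPM in Zac1 libraries 4, 5 and 6, against 69.0, 88.1 and 79.2 CPM in EGFP libraries 1, 2 and 3. The groups did not overlap, although Zac1 4 and EGFP 2 approached each other. The mean was 106.6 ± 8.81 CPM in Zac1 and 78.8 ± 9.56 CPM in EGFP (SD, n = 3), and *Atf3* rose 1.35-fold (log2 fold change 0.44, SE 0.08, 95% interval 0.26 to 0.62, edgeR adjusted p = 0.00731). The rise kept its direction under all 17 other settings (0.35 to 0.53) and passed in 15, ending without EGFP 3 (adjusted p = 0.0629) and without Zac1 6 (0.0511).

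The remaining bZIP partners were *Maff* and *Batf3*. *Maff* (chromosome 15, 79346621 to 79359076, plus strand) was at 65.7, 74.7 and 75.3 CPM in Zac1 and 60.0, 75.0 and 62.5 CPM in EGFP, with EGFP 2 among the Zac1 values. Its log2 fold change was 0.13 (95% interval -0.05 to 0.31, edgeR adjusted p = 0.49). *Batf3* (chromosome 1, 191097847 to 191108945, plus strand), known mainly from dendritic cells, had 3, 3 and 3 reads in the Zac1 libraries and 0 in each EGFP library. With a floor of 3 reads in place of the EGFP group's 0, the fold would be 2.61. That floor covers the counting error of the EGFP group only and takes the 9 Zac1 reads as exact, so 2.61 is no lower bound. With 9 reads in all, *Batf3* was below the minimum for testing. In the fit with no filter on low counts it did not pass (log2 fold change 4.55, SE 1.79, edgeR adjusted p = 0.149).

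**Figure D2:**
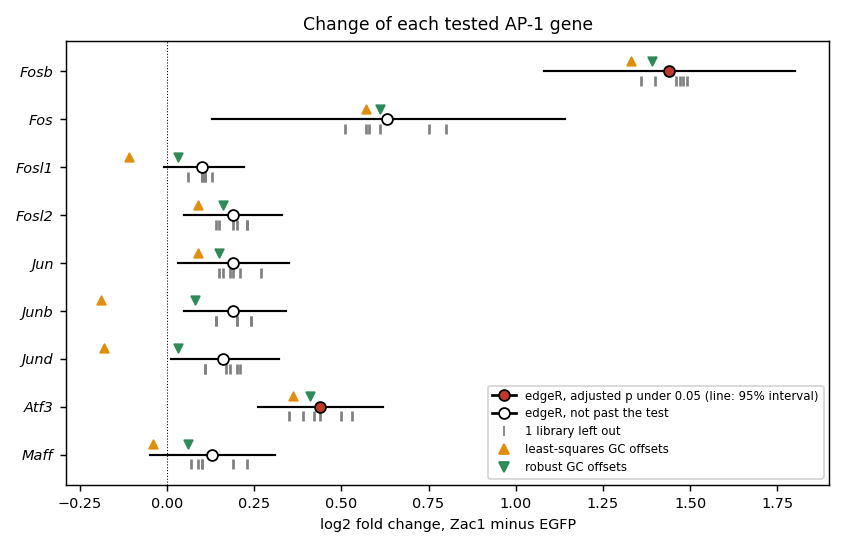
Log2 fold change (Zac1 minus EGFP) of the 9 tested AP-1 genes; circles with lines are edgeR estimates with 95% intervals, filled where adjusted p was under 0.05, ticks below are fits with 1 library left out, and triangles above are fits with GC offsets. *Fosb* (1.44) and *Atf3* (0.44) are filled, and the least-squares GC offsets move *Fosl1*, *Junb*, *Jund* and *Maff* below 0, where the robust ones leave them at 0.03 to 0.08.

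The order of libraries within each group was counted over the 9 tested genes, as a description with no test. In 7, all but *Fosb* and *Fos*, Zac1 6 was the highest Zac1 library (36.4% of all tested genes), and in 5 Zac1 4 was the lowest (41.5%). In EGFP, 7 of the 9 were highest in EGFP 2 (35.3% of all tested genes) and 7 were lowest in EGFP 1 (38.1%). Zac1 4 also had the lowest *Plagl1* level, 6604 CPM against 7937 and 8072 CPM in Zac1 5 and 6. *Fosb* ran the other way within Zac1, at 6.79 CPM in Zac1 4 against 6.23 and 6.2 CPM in Zac1 5 and 6. *Fos*, *Fosl2* and *Jund* were lowest in Zac1 5. A link between AP-1 and *Plagl1* levels within Zac1 was not tested. By the Pearson correlation of log2(CPM + 0.1) over the 6 libraries, the genes most like *Fosb* among 9903 with a mean count of at least 50 were *Ntn1* (0.997), *P2ry2* (0.996), *Plagl1* itself (0.995), *Mapt* (0.994) and *Efna2* (0.994). Those most like *Junb* were *Tsc22d4* (0.999), *Ripor1* (0.996), *Dip2a* (0.995), *Setd1b* (0.991) and *Hebp1* (0.987). With 6 points that share libraries and, for *Fosb*, the gap between the groups, such values describe these samples and no more.

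To compare levels between genes, CPM was divided by the length of each gene's longest transcript in GENCODE M21. On that scale, in CPM per kb, the order of levels in Zac1 was *Junb* (89.9 ± 6.41), *Fosl1* (74.2 ± 3.71), *Atf3* (53.8 ± 4.44), *Maff* (36.7 ± 2.75), *Jund* (34.7 ± 2.06), *Jun* (17.2 ± 1.61), *Fosl2* (10.8 ± 0.632), *Fosb* (1.69 ± 0.0878) and *Fos* (1.34 ± 0.192; SD, n = 3 each). Only *Maff* and *Jund* overlapped as neighbours in that order. In EGFP the order was the same but for *Fos* (0.859 ± 0.176), which stood above *Fosb* (0.621 ± 0.0653), and *Atf3*, *Maff* and *Jund* overlapped with their neighbours. Scaled by coding length instead, *Fosb* was above *Fos* in both groups (6.32 ± 0.328 and 2.47 ± 0.354 CPM per kb in Zac1, and 2.32 ± 0.243 and 1.59 ± 0.326 CPM per kb in EGFP), so their order in EGFP depends on the length chosen. The top of the order moved as well. By coding length it ran *Atf3* (196.0 ± 16.2), *Fosl1* (169.0 ± 8.44), *Junb* (158.0 ± 11.2) and *Maff* (154.0 ± 11.5) in Zac1. In EGFP it ran *Fosl1* (157.0 ± 1.31), *Atf3* (145.0 ± 17.6), *Maff* (141.0 ± 17.2) and *Junb* (138.0 ± 10.5), neighbours that overlapped. *Fosl2* stood above *Jund* and *Jun* in both groups on that scale.

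As a share of the summed CPM per kb of the 9 genes, the make-up of the family was as follows. JUN genes made up 44.3% ± 0.354 in Zac1 and 44.9% ± 0.929 in EGFP, FOS genes 27.5% ± 0.641 and 28.8% ± 1.0, *Atf3* 16.8% ± 0.465 and 14.2% ± 1.03, and *Maff* 11.5% ± 0.379 and 12.1% ± 0.927 (SD, n = 3). Most of the FOS share was *Fosl1*, with 23.2% ± 0.376 in Zac1 and 24.9% ± 1.05 in EGFP. *Fosb* and *Fos* together were 0.949% ± 0.116 of the family in Zac1 and 0.531% ± 0.0492 in EGFP, so the gene with the largest fold change stayed a small part of the AP-1 transcripts. By coding length the JUN share was lower, 30.9% in Zac1 and 31.7% in EGFP, and that of *Atf3* higher, 22.6% and 19.4%, while *Fosb* and *Fos* together remained small at 1.02% ± 0.121 and 0.522% ± 0.0269. These shares are a description and were given no test.

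**Figure D3:**
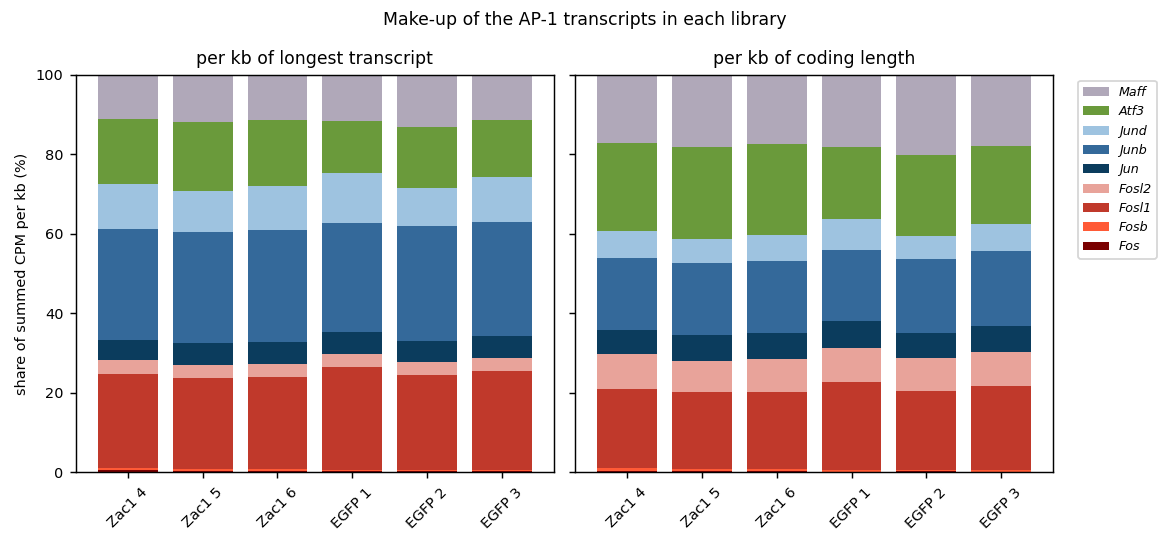
Share of each AP-1 gene in the summed CPM per kb of the 9 tested genes, in percent, per library with Zac1 left of EGFP; levels are per kb of longest transcript (left panel) or of coding sequence (right panel). *Junb* and *Fosl1* fill about the same part of every bar, the green part of *Atf3* is larger in Zac1, and *Fos* and *Fosb* are a thin line at the bottom.

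The genes around AP-1 were read from lists chosen with earlier results of these data known. Other AP-1 and MAF bZIP genes showed no call: of 13, 7 were tested, and edgeR, DESeq2 and limma-trend called 0 (at an unadjusted p under 0.05, 0 higher and 1 lower). Of all tested genes, edgeR called 3.78%, and 15.8% had an unadjusted p under 0.05. The small MAF gene *Mafk* was at 97.9 ± 9.24 CPM in Zac1 and 108.9 ± 5.51 CPM in EGFP (SD, n = 3; edgeR adjusted p = 0.301), and *Bach1*, a heme-regulated repressor that pairs with small MAF proteins, at 53.9 ± 0.841 CPM and 57.2 ± 2.22 CPM (edgeR adjusted p = 0.527). The median log2 fold change of the 7 was -0.09. Among 16 ATF, CREB and stress bZIP genes, all tested, 1 rose and 1 fell by edgeR, with a median of -0.01. Of all tested genes 3.12% rose and 0.668% fell. *Creb3l1*, an ATF6-like membrane-bound factor, rose to 5.54 ± 0.461 CPM in Zac1, against 3.47 ± 0.136 CPM in EGFP (log2 fold change 0.67, edgeR adjusted p = 0.0275), a call that ended when Zac1 5, Zac1 6, EGFP 2 or EGFP 3 was left out (up to 0.13), with GC offsets (up to 0.181) and with DESeq2 (0.064). *Atf6*, a sensor of unfolded proteins, fell to 144.3 ± 3.9 CPM in Zac1, against 173.8 ± 1.58 CPM in EGFP (-0.27, edgeR adjusted p = 0.00595), and was lost without Zac1 5 (0.0831).

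Upstream of AP-1, a list of 27 genes covered MAP kinases, the kinases that activate them and kinases that they activate. Of these 25 were tested, and edgeR, DESeq2 and limma-trend called 0. At an unadjusted p under 0.05, 5 were higher and 1 lower, where 9.41% of all tested genes were higher and 15.8% passed in either direction. The median log2 fold change of the 25 was 0.07. *Rps6ka1*, which encodes the ERK-activated kinase RSK1, stood at 23.3 ± 1.01 CPM in Zac1 and 19.2 ± 1.91 CPM in EGFP (edgeR adjusted p = 0.129), and the p38 kinase gene *Mapk11* at 19.0 ± 1.45 CPM and 15.5 ± 2.28 CPM (edgeR adjusted p = 0.215). mRNA levels say nothing of the phosphorylation through which these kinases act. Of 7 genes for SRF and its cofactors, which drive *Fos* and other immediate-early genes, 1 passed by edgeR, as did 3.78% of all tested genes. *Srf* was at 44.5, 50.3 and 51.4 CPM in Zac1 and 38.7, 41.8 and 39.7 CPM in EGFP, without overlap (log2 fold change 0.28, edgeR adjusted p = 0.0449). That call ended in 10 of 17 other settings, among them DESeq2, limma-trend and every single library left out but Zac1 4, and turned to -0.11 with least-squares GC offsets (adjusted p = 0.437).

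Other immediate-early genes included 4 rises and 0 falls by edgeR among 19 tested of 25, where 3.12% of all tested genes rose and 0.668% fell, with a median log2 fold change of 0.22. At an unadjusted p under 0.05, 10 were higher and 0 lower (9.41% of all tested genes were higher), and DESeq2 called 3 higher and limma-trend 4, with 0 lower in each. *Nr4a3*, an orphan nuclear receptor gene, had 36, 37 and 35 reads in Zac1 and 3, 1 and 5 reads in EGFP (log2 fold change 3.33, SE 0.4, adjusted p = 0.000317). Its paralog *Nr4a1* was at 11.6, 11.3 and 12.3 CPM in Zac1 and 8.93, 9.0 and 7.63 CPM in EGFP (0.46, edgeR adjusted p = 0.0377). *Klf10*, a Krüppel-like factor induced by TGF-beta, was at 98.5, 94.5 and 95.5 CPM in Zac1 and 67.3, 79.6 and 79.8 CPM in EGFP (0.35, edgeR adjusted p = 0.00889). *Egr1*, a zinc-finger factor driven by SRF, was at 22.5, 31.4 and 29.2 CPM in Zac1 and 13.6, 19.6 and 21.1 CPM in EGFP (0.61, edgeR adjusted p = 0.0304). In all 4, which were named because they passed the test, the Zac1 libraries lay above all EGFP libraries, as in 11.9% of all tested genes. *Nr4a3* and *Klf10* passed with any 1 library left out, while *Nr4a1* did not pass when Zac1 5, Zac1 6, EGFP 2 or EGFP 3 was left out (adjusted p up to 0.194) nor *Egr1* when Zac1 5, Zac1 6, EGFP 1 or EGFP 3 was (up to 0.169). Neither passed with GC offsets.

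Most of the textbook AP-1 targets tested did not pass. Of 26, 20 were tested, 4 rose, 2 fell and 14 did not pass, with a median log2 fold change of 0.08; of all tested genes 3.12% rose and 0.668% fell. At an unadjusted p under 0.05, 7 were higher and 3 lower, where 9.41% of all tested genes were higher and 15.8% passed in either direction. *Il11*, a cytokine gene of the IL-6 family, was at 5.05, 4.46 and 5.82 CPM in Zac1 and 2.13, 2.82 and 1.89 CPM in EGFP (log2 fold change 1.16, edgeR adjusted p = 0.00375). *Hbegf*, a membrane-anchored EGF receptor ligand, was at 49.1, 51.3 and 52.8 CPM in Zac1 and 41.8, 37.3 and 37.1 CPM in EGFP (0.4, edgeR adjusted p = 0.00444). Both passed with any 1 library left out. *Tgfb1* was at 30.7, 30.5 and 30.0 CPM in Zac1 and 24.8, 20.1 and 18.5 CPM in EGFP (0.52, edgeR adjusted p = 0.00731; 0.066 without EGFP 3). *Ptgs2*, the inducible cyclooxygenase gene, was lower, at 74.9, 78.1 and 66.2 CPM in Zac1 and 104.2, 87.9 and 94.7 CPM in EGFP (-0.39, edgeR adjusted p = 0.00834; 0.0595 without Zac1 6 and 0.0543 without EGFP 3). The other fall, *Il6*, named after its values were seen, rested on few reads, 8, 7 and 15 in Zac1 and 27, 29 and 25 in EGFP (-1.63, edgeR adjusted p = 0.00953; 0.0698 without Zac1 5).

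Factors that bind AU-rich elements of mRNA or act in the turnover of *Fos* and *Jun* products showed no call. Of 10 tested, edgeR, DESeq2 and limma-trend called 0, with 2 higher and 1 lower at an unadjusted p under 0.05. By that rule 9.41% of all tested genes were higher and 15.8% passed in either direction. *Zfp36* (tristetraprolin), which binds AU-rich elements, stood at 43.1 ± 4.44 CPM in Zac1 and 35.3 ± 3.1 CPM in EGFP (SD, n = 3; log2 fold change 0.29, edgeR adjusted p = 0.0966), and *Zfp36l2*, its relative, at 273.0 ± 10.6 CPM and 248.9 ± 5.74 CPM (0.13, edgeR adjusted p = 0.189).

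**Figure D4:**
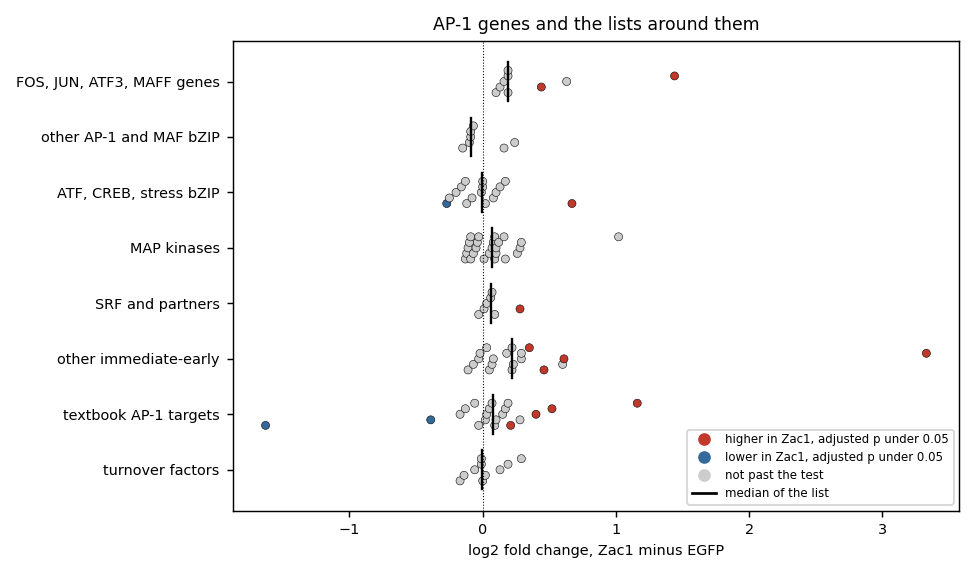
Log2 fold change (Zac1 minus EGFP) of every tested gene in the AP-1 set and in 7 lists around it; each point is a gene, red or blue where edgeR's adjusted p was under 0.05, and bars are list medians. The lists of MAP kinases, turnover factors and other AP-1 genes hold no coloured point, and the immediate-early list holds 4 red ones.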

How the data were processed

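The deposited data are gene-level read counts in a single table that keeps the 6 libraries apart. FastQC, STAR, HTSeq and DESeq2 are named, per the submitters' processing notes; genome build, annotation and strand setting: not given in the sources used here. The table is named as normalized, but all its values are whole numbers and its median-of-ratios factors run from 0.928 to 1.162, so the deposited values were treated as raw counts. A directional kit was used on DNase-treated RNA, per the labels' protocols.

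Symbols and positions came from GENCODE M21 (GRCm38), which named 49326 of 49585 IDs, and promoter windows from RefSeq (GRCm38.p6). Genes whose counts averaged 10 or more were compared by quasi-likelihood tests in edgeR 4.0.16 (R 4.3.3, TMM scaling, prior count 0.125), two-sided, with Benjamini-Hochberg adjustment over all 12130 genes. Each SE was obtained as the absolute log2 fold change over the root of F, and the 95% interval uses the t quantile at the total degrees of freedom. Within groups, pairs of libraries differed by more than sampling noise (chi-square per degree of freedom 2.29 to 8.83). The fit was tested on simulated data. The floor used for 0 reads covers the counting error of that group only. Alternatives were other scalings, filters and variance settings, DESeq2 1.42.0, limma-trend (limma 3.58.1, prior count 1), offsets that remove a loess trend (span 0.3) of fold change on transcript GC, and leaving out libraries.

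The AP-1 genes, the lists and the alternatives were chosen with earlier results of these data known, and no list was given a test. Named genes were all 10 AP-1 genes; up to 4 genes of each list past the test, by p, or, where none passed, values of 2 with the lowest p; and the 5 genes most like *Fosb* and *Junb*. Some list genes that passed are not reported here by name.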

Additional observations from a re-analysis of the deposited data

How the results depend on the processing

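The rise of *Fosb* held under all 17 other settings and that of *Atf3* under 15. The number of AP-1 genes called higher was 1 to 4 with single libraries left out and 5 without Zac1 4 and EGFP 1 together; 0 were lower under any setting. Least-squares GC offsets turned *Fosl1* (-0.11), *Junb* (-0.19), *Jund* (-0.18) and *Maff* (-0.04) below 0, while robust GC offsets left them above 0 (0.03, 0.08, 0.03 and 0.06); the cause was not tested. Over all genes, 979 changed with no filter on low counts (731 higher, 248 lower), 241 when only genes averaging 50 or more counts were tested (190 and 51), and 1461 without Zac1 4 and EGFP 1 (853 and 608). Single libraries left out gave 206 to 963 genes, 187 to 584 higher and 19 to 379 lower. Least-squares GC offsets gave 348 lower genes, robust ones 42. The 16 list genes called, cell markers included, became 10 under the filter of 50 counts, 10 with robust GC offsets, 32 without Zac1 4 and EGFP 1, and 8 to 23 with single libraries left out. By coding length the FOS genes were 28.8% of the AP-1 transcripts in Zac1 and 30.1% in EGFP, the JUN genes 30.9% and 31.7%, *Atf3* 22.6% and 19.4%, and *Maff* 17.7% and 18.8%. The low counts of *Fos* and *Batf3* limit what can be said of them. No paired analysis was made, because whether Zac1 and EGFP libraries were prepared in pairs is not stated. The libraries are numbered in 1 run across both groups, which neither shows nor excludes pairs. Zac1 4 and EGFP 1 stood apart together on a principal component, and whether they share a batch was not tested.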
